A study of Mus musculus with 36 samples.

Results

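The genes described here encode regulators of pericellular proteolysis in cartilage. They are the 4 tissue inhibitors of metalloproteinases (Timp1, Timp2, Timp3 and Timp4), the membrane-anchored inhibitor Reck, and the secreted serine proteases Htra1, Htra3 and Htra4. The members were chosen by name. For each gene, the transcript row with the highest mean count over the 12 RNA libraries was used, which gave 8 genes of 23071 with a symbol, and the CpG cytosines covered within each gene body and 5000 bp to either side were taken from the bisulfite data. A total of 593 such cytosines of 1444973 were tested at 4 weeks and 531 of 1273121 at 12 weeks.

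All samples were articular cartilage, dissected from femoral condyles and tibial plateaus of C57BL/6J males that were 12 weeks old at surgery. Joint injury was induced in right knees by destabilizing the medial meniscus (DMM), which leads to osteoarthritis, and the unoperated left knees of those animals were the controls, so that no sham operation was included. Knees were collected 4 or 12 weeks after surgery, and each of the 3 control and 3 DMM libraries per assay and week held the tissue of 3 pooled knees. RNA and DNA came from different mice. For RNA and for region means, p-values measure the spread between these pools, while the test of single cytosines sums the reads of a limb and does not use that spread.

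TIMPs bind the active site of matrix metalloproteinases (MMPs), and TIMP3, which stays bound to the extracellular matrix, also inhibits the aggrecan-degrading proteases ADAMTS4 and ADAMTS5. RECK is a glycosylphosphatidylinositol-anchored inhibitor of MMPs that also takes part in Wnt7 signalling. HTRA1, HTRA3 and HTRA4 are secreted serine proteases with a PDZ domain, and HTRA1 is known for cleaving fibronectin and small proteoglycans in osteoarthritic joints. In cartilage, the balance between these enzymes and inhibitors sets how fast the pericellular matrix is turned over.

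In these libraries, no member passed the threshold between DMM and control limbs in edgeR's quasi-likelihood test at either week (Benjamini-Hochberg adjusted p under 0.05). The members lying apart between the limbs were Timp1 (higher in DMM) and Timp4 (lower) at 4 weeks, and Timp2, Htra3 and Htra4 (all higher in DMM) at 12 weeks, where 21.1% and 18.3% of all genes lay apart in either direction. In cartilage of unoperated knees, Htra4 and Timp2 were lower at 12 than at 4 weeks, and in DMM cartilage Timp1 was lower at 12 weeks, all past the threshold, which 5.7% and 23.6% of all rows passed in the respective limb. In a fit of the 6 control libraries without those of DMM, 0 rows passed. At the DNA level, 7 cytosines in the bodies of Timp2, Reck, Htra1 and Htra3 were called lower in 5-methylcytosine (5mC) in DMM cartilage at 12 weeks by the test on pooled reads, where 0.227% of all cytosines were called. Of the 7, 4 were in the first intron of Timp2, and the limbs overlapped at the Reck site, whose call rested on 1 control. With a correction for overdispersion, 0 of the 7 were called.

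The sequences around these 7 cytosines are shown because they carry the methylation differences given later. Each is the plus strand of GRCm38 with 30 bases to either side of the CpG, and capitals mark the CpG that holds a called cytosine. The first window of Timp2 lay 24730 bp into the gene, the next, with 2 called cytosines 8 bp apart, 12405 and 12397 bp into it, and the last 2670 bp into it, all in intron 1. The Htra3 site was 2162 bp from the start of its gene, in intron 1, and the Htra1 site 32698 bp from the start, in intron 3. The Reck site lay 42868 bp from the start, within the coding part of exon 10.
Timp2, chr11:118330650-118330711: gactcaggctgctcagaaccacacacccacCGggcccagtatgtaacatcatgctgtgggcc
Timp2, chr11:118342976-118343045: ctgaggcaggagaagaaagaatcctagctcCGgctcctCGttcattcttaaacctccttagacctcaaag
Timp2, chr11:118352711-118352772: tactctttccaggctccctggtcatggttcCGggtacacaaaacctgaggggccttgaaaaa
Reck, chr4:43918367-43918428: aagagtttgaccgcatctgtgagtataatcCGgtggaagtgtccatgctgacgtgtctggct
Htra3, chr5:35677587-35677648: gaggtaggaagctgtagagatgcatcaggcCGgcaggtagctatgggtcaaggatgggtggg
Htra1, chr7:130968870-130968931: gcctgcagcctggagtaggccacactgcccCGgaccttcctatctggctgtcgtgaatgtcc
Each of the 6 windows held 1 CCGG, the site cut by MspI, the enzyme used to select fragments, and it contained a called CpG.

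The 250 bases before the transcript start are shown for 3 Timp genes that differed in CpG number. Bisulfite coverage was counted over the whole gene and 5000 bp to either side, and its relation to these windows was not tested. The sequences are from RefSeq (GRCm38.p6), 5′ to 3′ on the strand of the gene, with each CpG in capitals. An entry at the start of the transcript used was found for 7 of the 8 genes, all except Htra4.
Timp1, plus strand, chrX:20869916-20870165: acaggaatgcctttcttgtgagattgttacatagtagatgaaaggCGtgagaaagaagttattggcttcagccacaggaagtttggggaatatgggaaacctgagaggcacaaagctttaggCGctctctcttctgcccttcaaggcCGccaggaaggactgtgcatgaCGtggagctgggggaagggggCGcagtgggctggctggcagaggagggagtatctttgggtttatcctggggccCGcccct
Timp2, minus strand, chr11:118355412-118355661: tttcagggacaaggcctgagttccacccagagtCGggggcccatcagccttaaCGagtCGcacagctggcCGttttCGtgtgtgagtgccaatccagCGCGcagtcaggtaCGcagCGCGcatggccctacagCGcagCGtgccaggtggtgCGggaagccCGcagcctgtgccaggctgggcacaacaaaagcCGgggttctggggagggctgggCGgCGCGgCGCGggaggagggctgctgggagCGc
Timp4, minus strand, chr6:115252206-115252455: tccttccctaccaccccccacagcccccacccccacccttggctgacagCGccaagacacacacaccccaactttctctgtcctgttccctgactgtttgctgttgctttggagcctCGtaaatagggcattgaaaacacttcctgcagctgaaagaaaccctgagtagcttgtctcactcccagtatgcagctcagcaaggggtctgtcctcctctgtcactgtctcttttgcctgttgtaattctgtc
The Timp2 window held 21 CpGs and 1 CCGG, that of Timp1 6 CpGs and that of Timp4 2 CpGs, and neither of the latter had a CCGG. Windows of Reck, Htra1, Timp3 and Htra3 held 19, 22, 18 and 3 CpGs. Among all 32851 promoter windows of this length, 47.05% held a CCGG and the median was 6 CpGs. The SP1 motif GGGCGG was found on either strand in the windows of Timp1, Timp2, Timp3, Reck and Htra1, against 32.74% of all windows, and the AP-1 motif TGANTCA (6.749% of all) and the TATA box TATAAA (12.37% of all) in none of the 7, which says only that these letters are not there.

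RNA libraries held 27706547 to 62737656 counts on RefSeq transcripts, and values are given as CPM (counts scaled to library size) after TMM normalization of all 12 libraries. All 14 chondrocyte markers were detected, and their summed level ranged from 11516 to 40900 CPM. Markers of other tissues were present as well: skeletal muscle markers summed to 107 to 25163 CPM, and neutrophil and marrow markers to 8913 to 41937 CPM. Replicate 3 of the 4-week controls had the lowest chondrocyte sum of its group (17269 CPM, against 30880 and 40900) and the highest marrow sum (25476 CPM, against 8913 and 14773). At 12 weeks, control replicate 2 had the highest chondrocyte sum of the controls (33491 CPM, against 11516 and 18459) and control replicate 3 the highest muscle sum (17270 CPM, against 107 and 2152). In such bulk samples, fewer cells of a type and less RNA per cell cannot be told apart.

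Levels were first compared between genes per kb of exonic length. In control cartilage at 4 weeks, Timp3 was the most abundant member (311 ± 128 CPM per kb, SD, n = 3), followed by Htra1 (196 ± 97.7), Timp2 (185 ± 63.4), Htra4 (128 ± 79.9), Htra3 (77.6 ± 32.1) and Timp1 (67.8 ± 22.7), and the ranges of each neighbouring pair in this order overlapped. Reck (10.4 ± 3.03 CPM per kb) and Timp4 (4.11 ± 1.62 CPM per kb) lay below all of these, with ranges apart from their neighbours. In control cartilage at 12 weeks the order was Timp3, Htra1, Htra3, Timp2, Timp1, Htra4, Reck and Timp4, and Timp3 (245 ± 60.8 CPM per kb) stood apart from Htra1 (113 ± 56.96 CPM per kb). In DMM cartilage at 4 weeks Timp2 (238 ± 80.6 CPM per kb) and Timp3 (212 ± 50.3 CPM per kb) led with overlapping ranges, and at 12 weeks Timp3 led again (296 ± 55.3 CPM per kb), with a range that overlapped that of Htra1 (220 ± 68.2 CPM per kb). Reck and Timp4 took the last places in all 4 groups.

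**Figure D1:**
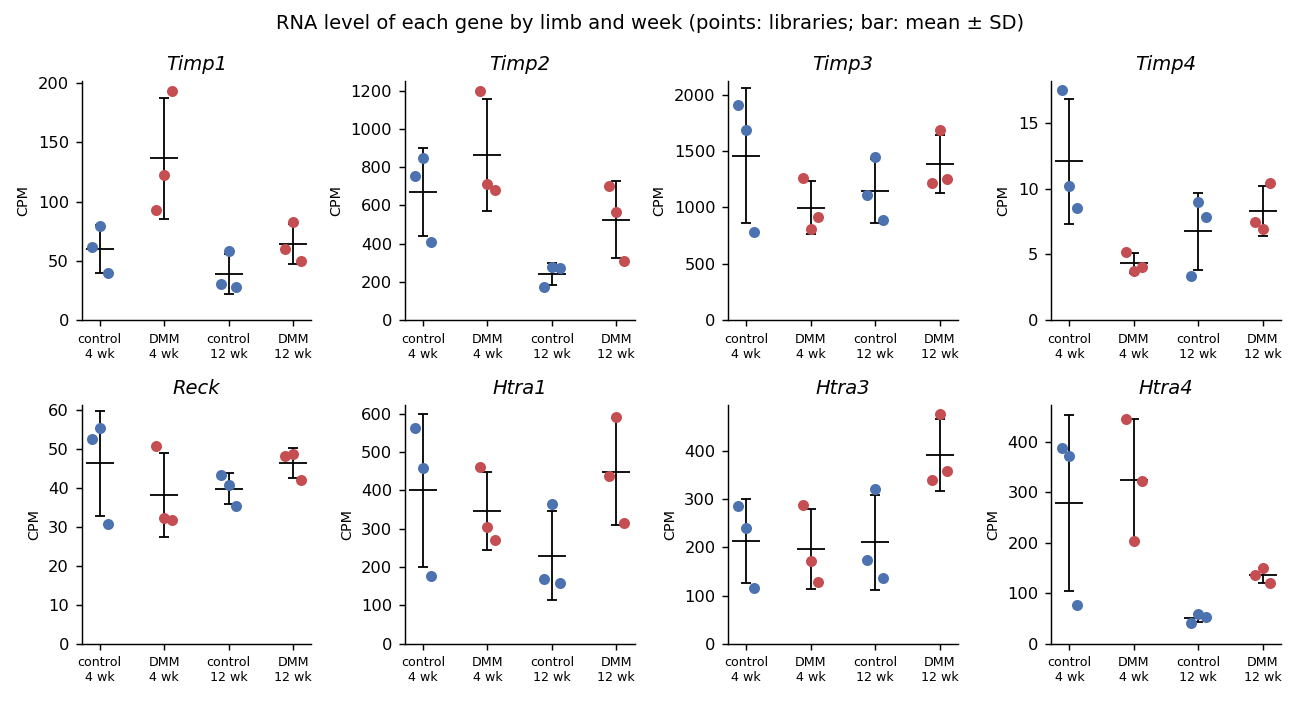
RNA level of each of the 8 genes in CPM (vertical axes start at 0) by limb and week; points are libraries, and bars show the mean ± SD of 3 libraries. At 12 weeks the 3 DMM libraries of Htra4 (119.63 to 149.42 CPM) lie above the 3 controls (41.94 to 58.71 CPM), and at 4 weeks those of Timp4 (3.74 to 5.21 CPM) lie below the controls (8.54 to 17.52 CPM).

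Timp1, an inducible, soluble inhibitor of most MMPs, measured 61.5, 79.5 and 39.3 CPM in the 4-week controls and 93.2, 123 and 193 CPM in the 4-week DMM libraries. Every DMM library was above every control, and the log2 fold change was 1.18 ± 0.33 (SE; edgeR adjusted p = 0.263; exact permutation p = 0.1, the smallest that 3 against 3 allows). DESeq2 gave an adjusted p of 0.0353. In the 4-week DMM libraries the sums of fibroblast and synovium markers (5 of 8 higher and 1 lower without overlap) and of osteoblast markers (3 of 8 higher) lay above the controls. Their part in the 4-week differences of the members was not tested. With the skeletal muscle markers, which were lower in all DMM libraries of this week, as a covariate, the log2 fold change of Timp1 was 0.54 (edgeR adjusted p = 0.956). Over all rows this fit called 0 of 21140, and 712 had an unadjusted p under 0.05. Its adjusted p-values, here and for the genes below, do not show that a difference was absent. In 12-week cartilage the controls measured 30.2, 58.2 and 27.9 CPM and the DMM libraries 59.9, 83.1 and 50.1 CPM. Here the control of replicate 2 reached into the DMM range (log2 fold change 0.74 ± 0.31, edgeR adjusted p = 0.298), and without it the adjusted p was 0.0397 and the log2 fold change 1.12. Leaving out any other library gave 0.52 to 0.89, with edgeR adjusted p-values up to 0.72. Over all rows, edgeR called 860 of 21261 at 12 weeks without control replicate 2, against 1 of 21010 with every library. Both count rows of Timp1 hold the same values, so they are 1 measurement. Its gene lies inside Syn1, on the opposite strand and with no shared exonic base.

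Timp2, which also serves as a bridge in the activation of MMP2 by MMP14, measured 753, 846 and 410 CPM in the 4-week controls and 1199, 711 and 678 CPM in the 4-week DMM libraries. The groups overlapped (log2 fold change 0.37 ± 0.36, edgeR adjusted p = 0.62), and with a score of the skeletal muscle markers as a covariate the value was 1.13 (edgeR adjusted p = 0.953). Later, at 12 weeks, controls measured 173, 278 and 271 CPM and the DMM libraries 702, 565 and 307 CPM. All DMM libraries were above all controls, DMM replicate 3 by the smallest margin, with a log2 fold change of 1.14 ± 0.33 (edgeR adjusted p = 0.227, exact permutation p = 0.1). DESeq2 called this difference (adjusted p = 0.0173).

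Timp3 measured 1908.5, 1682.9 and 777.6 CPM in the 4-week controls and 1259.2, 809.94 and 913.35 CPM in the DMM libraries of that week. The 2 higher controls were above all DMM libraries and the control of replicate 3 below them, and the log2 fold change was -0.54 ± 0.38 (edgeR adjusted p = 0.49). With a score of the skeletal muscle markers (the muscle score) as a covariate the direction turned (0.25, edgeR adjusted p = 0.975). The 12-week controls spanned 883.39 to 1449 CPM and the DMM libraries 1215.2 to 1682 CPM, again overlapping (0.27 ± 0.23 on the log2 scale, edgeR adjusted p = 0.558).

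Timp4, the least abundant of the 4 inhibitors, is best known from heart and skeletal muscle. It measured 17.5, 10.2 and 8.54 CPM in the 4-week controls and 5.21, 3.74 and 4.05 CPM in the 4-week DMM libraries. All DMM libraries were below all controls (log2 fold change -1.48 ± 0.32, edgeR adjusted p = 0.219, exact permutation p = 0.1), and DESeq2 called the difference (adjusted p = 0.00142). The summed skeletal muscle markers moved the same way in these libraries, from 25163, 7852 and 6755 CPM in the controls to 4107, 1924 and 661 CPM in DMM, and all 14 of the markers had groups that did not overlap, lower in DMM. With a score of these markers as a covariate the log2 fold change of Timp4 was -0.60 (adjusted p = 0.953), and the part of the markers in the difference cannot be told apart from the limb here. Without control replicate 3 the value was -1.69 (adjusted p = 0.0423), and without any other library the edgeR adjusted p was 0.141 to 0.834. Over all rows, 118 of 21344 were called without control replicate 3, against 16 of 21140 with every library. At 12 weeks Timp4 measured 3.39, 9.00 and 7.88 CPM in controls and 7.48, 6.93 and 10.5 CPM in DMM, which overlapped (log2 fold change 0.30 ± 0.35, edgeR adjusted p = 0.673).

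Reck had the smallest spread relative to its mean at 12 weeks (coefficient of variation 10.1% in controls and 8.28% in DMM), with 43.2, 40.7 and 35.4 CPM in controls and 48.2, 48.7 and 41.8 CPM in DMM. The groups overlapped (log2 fold change 0.22 ± 0.13, edgeR adjusted p = 0.404). At 4 weeks Reck measured 52.4, 55.3 and 30.8 CPM in controls and 50.5, 32.3 and 31.6 CPM in DMM (log2 fold change -0.27 ± 0.29, edgeR adjusted p = 0.65), and 0.40 with the muscle score as a covariate (edgeR adjusted p = 0.956).

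Among the serine proteases, Htra1 measured 563, 459 and 178 CPM in the 4-week controls and 461, 305 and 270 CPM in the DMM libraries of that week, with overlapping groups (log2 fold change -0.20 ± 0.42, edgeR adjusted p = 0.829), and with the muscle score as a covariate the value turned to 0.99 (edgeR adjusted p = 0.953). At 12 weeks it measured 168, 363 and 157 CPM in controls and 438, 592 and 314 CPM in DMM. Only control replicate 2 reached into the DMM range, and the log2 fold change was 0.97 ± 0.37 (edgeR adjusted p = 0.277). Leaving that library out gave 1.43 with an adjusted p of 0.0393, whereas without DMM replicate 2 the value was 0.73 (edgeR adjusted p = 0.713) and without control replicate 3 it was 0.75 (0.538). The fit without control replicate 2 called 860 of 21261 rows in all, against 1 of 21010 with every library.

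Htra3, a protease known to cleave matrix proteoglycans and to antagonise TGF-beta family signals, measured 285, 239 and 115 CPM in the 4-week controls and 288, 172 and 128 CPM in 4-week DMM cartilage (log2 fold change -0.11 ± 0.40, edgeR adjusted p = 0.908), which turned to 1.17 with the muscle score as a covariate (edgeR adjusted p = 0.953). At 12 weeks its level was 173, 322 and 136 CPM in controls and 339, 477 and 359 CPM in DMM. All DMM libraries were above all controls, the closest control being replicate 2 (log2 fold change 0.90 ± 0.31, edgeR adjusted p = 0.263, exact permutation p = 0.1). Without that control the log2 fold change was 1.31 (adjusted p = 0.0334), whereas without control replicate 3 it was 0.65 (edgeR adjusted p = 0.528) and without DMM replicate 2 it was 0.75 (0.708). The fit without control replicate 2 called 860 of 21261 rows in all, against 1 of 21010 with every library.

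Htra4, the least studied of the 3 proteases, measured 387, 371 and 77.2 CPM in the 4-week controls and 444, 203 and 322 CPM in the 4-week DMM libraries. Control replicate 3 was far below the other libraries, and the groups overlapped (log2 fold change 0.23 ± 0.56, edgeR adjusted p = 0.858), with 1.18 when the muscle score was a covariate (edgeR adjusted p = 0.953). Without that library the value was -0.24. The 12-week controls measured 41.9, 58.7 and 52.4 CPM and the DMM libraries 137, 149 and 120 CPM. This was the member with the smallest p at 12 weeks (log2 fold change 1.41 ± 0.16, a fold of 2.66, edgeR adjusted p = 0.0643, exact permutation p = 0.1). DESeq2 called the difference (adjusted p = 6.643e-11), and the log2 fold change was between 1.27 and 1.5 over all other settings and left-out libraries. It passed the edgeR threshold without control replicate 2 (adjusted p = 0.0324) and without DMM replicate 3 (adjusted p = 0.0243), and the adjusted p was 0.248 to 0.382 without any of the other 4 libraries. Without control replicate 2 edgeR called 860 of 21261 rows in all, and without DMM replicate 3 102 of 21213, against 1 of 21010 with every library. At 12 weeks the muscle sums of the groups overlapped, at 107, 2152 and 17270 CPM in controls and 13325, 689 and 1047 CPM in DMM. Macrophage markers were lower in all DMM libraries in sum (3403 to 4067 CPM, against 4175 to 5709 CPM), with 5 of 7 markers lower without overlap. Lower too were 3 of 8 erythroid markers, while 4 of 8 fibroblast and synovium markers and 3 of 8 osteoblast and osteocyte markers were higher, and their sums overlapped. The chondrocyte sums overlapped as well, at 18459, 33491 and 11516 CPM in controls and 23296, 37688 and 28915 CPM in DMM. With the muscle score as a covariate, edgeR called 0 of 21010 rows at 12 weeks, and the log2 fold change was 2.07 for Mmp3 and 1.15 for Mmp2. Over the settings that kept all libraries, this covariate among them, that of Htra4 was 1.39 to 1.42. The part of the other markers in the 12-week differences of the members and lists was not tested.

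**Figure D2:**
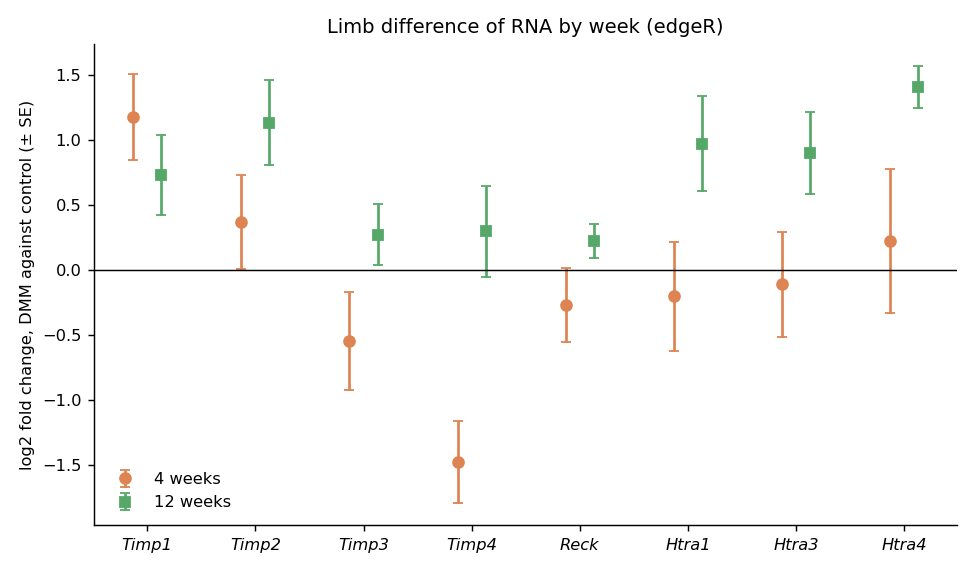
Log2 fold change of DMM against control RNA for each gene (vertical axis; bars are SE from edgeR) at 4 weeks (circles) and 12 weeks (squares), 3 libraries per limb. At 12 weeks all 8 estimates are above 0, led by Htra4 at 1.41, and at 4 weeks Timp1 (1.18) and Timp4 (-1.48) lie farthest from 0.

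Of the 8 members, 0 were called by edgeR in either limb comparison, where 0.0757% of all rows were called at 4 weeks and 0.00476% at 12 weeks. At an unadjusted p under 0.05 there were 2 at 4 weeks (Timp1 and Timp4) and 5 at 12 weeks (Timp1, Timp2, Htra1, Htra3 and Htra4), beside 13.7% and 16.3% of all rows, and DESeq2 called 2 at each week, with 3.54% and 4.14% of all rows called by it. Groups did not overlap for 1 member higher and 1 lower at 4 weeks, where 21.1% of all genes had such groups (10.8% higher and 10.3% lower), and for 3 members higher at 12 weeks, where 18.3% of all genes had such groups (9.92% higher and 8.43% lower). The median log2 fold change of the members was -0.16 at 4 weeks and 0.82 at 12 weeks, beside -0.02 and 0.02 over all genes. The limb differences of the 2 weeks were compared in 1 fit over 12 libraries. No member passed that interaction test (0 of 21618 rows did so by edgeR, and 0 members by DESeq2, which called 0.0741% of rows). Timp4 had the only unadjusted p under 0.05, with a limb difference 1.78 ± 0.51 higher on the log2 scale at 12 than at 4 weeks (adjusted p = 0.405).

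Between the weeks, control cartilage gave 2 calls among the members, both lower at 12 weeks, where 5.7% of all rows were called and 3.24% lower. DESeq2 called the same 2 members, with 14% of all rows. Htra4 fell by 2.45 on the log2 scale (SE 0.48, edgeR adjusted p = 0.0187), from the 3 libraries at 77.2 to 387 CPM to 3 at 41.9 to 58.7 CPM, which did not overlap. Timp2 fell by 1.48 (SE 0.37, edgeR adjusted p = 0.0402), from 410 to 846 CPM to 173 to 278 CPM. In a fit of the 6 control libraries alone neither was called by edgeR (adjusted p = 0.0999 for Htra4 and 0.097 for Timp2). That fit called 0 of 21222 rows, against 1233 in the fit of 12 libraries. Calls between the weeks in control cartilage, here and in the lists, thus rest on a spread taken from both limbs. Without the 4-week control of replicate 3, Htra4 fell by 2.92 (edgeR adjusted p = 4.0e-04), Timp2 by 1.76 and Htra1 by 1.18 (edgeR adjusted p = 0.0388), while without control replicate 1 of either week, replicate 2 of week 4 or replicate 3 of week 12 the count of member calls was 0. Over all rows, the first of these fits called 4683 of 21862 and the fits without a member call 37 to 265.

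In DMM cartilage, Timp1 was the member called between the weeks, where 23.6% of all rows were called. It fell by 1.08 on the log2 scale (SE 0.36, edgeR adjusted p = 0.0457), from 93.2 to 193 CPM at 4 weeks to 50.1 to 83.1 CPM at 12 weeks. Htra4 was lower at 12 weeks in every library (-1.26 ± 0.47, adjusted p = 0.07), while Timp4 (0.94 ± 0.36, adjusted p = 0.0803) and Htra3 (0.999 ± 0.403, adjusted p = 0.0918) were higher at 12 weeks in every library without passing the test. DESeq2 called Timp1, Htra4 and Timp4, with 30.7% of all rows. Non-overlapping weeks were found for 2 members lower in controls, where 26.8% of all genes did not overlap (15.8% higher and 11.1% lower), and for 2 higher and 2 lower in DMM, where 41.8% did not (22.9% higher and 19% lower). Leaving out any DMM library of 12 weeks, or DMM replicate 2 or 3 or control replicate 2 of 4 weeks, removed the call of Timp1. The marker sums of DMM cartilage differed between the weeks as well. Without overlap, chondrocyte markers were higher at 12 weeks (14566 to 21856 CPM against 23296 to 37688 CPM), as were neutrophil and marrow markers (12958 to 19284 CPM against 20118 to 32797 CPM), and endothelium (147 to 175 CPM against 81.5 to 115 CPM) and adipocyte markers (292 to 491 CPM against 129 to 195 CPM) were lower. Their part in the differences between the weeks, here and in the lists, was not tested. The week groups differ in the age of the mice as well as in the time after surgery. Any difference in library preparation between the weeks would go with these, and none of them can be told apart.

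The makeup of each family was also described within a library, as each gene's share of the summed CPM per kb, which does not depend on the scaling between libraries. Timp3 made up 59.0%, 52.4% and 50.9% of Timp transcripts in the 4-week controls and 38.1%, 34.0% and 32.4% in the 4-week DMM libraries, which did not overlap. Timp1 made up 10.03%, 13.1% and 13.6% in those controls and 14.9%, 27.2% and 36.2% in DMM. At 12 weeks the Timp3 share was 74.1%, 68.1% and 63.4% in controls and 49.6%, 58.8% and 64.9% in DMM, where DMM replicate 3 reached into the control range, and the Timp2 share was 14.9%, 16.8% and 25.1% against 37.0%, 25.5% and 20.5%.
Htra1 stayed the largest part of the Htra sum in 11 of 12 libraries, at 40.6% to 55.3% over all of them. Htra4 made up 21.5% to 35.3% in controls at 4 weeks and 8.35% to 15.96% at 12 weeks, with DMM libraries at 30.4% to 45.2% and 12.9% to 16.1%. The share of Htra3 was higher at 12 weeks in every library, at 18.1% to 25.4% against 32.8% to 38.35% in controls and 14.2% to 20.5% against 30.8% to 38.5% in DMM.

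**Figure D3:**
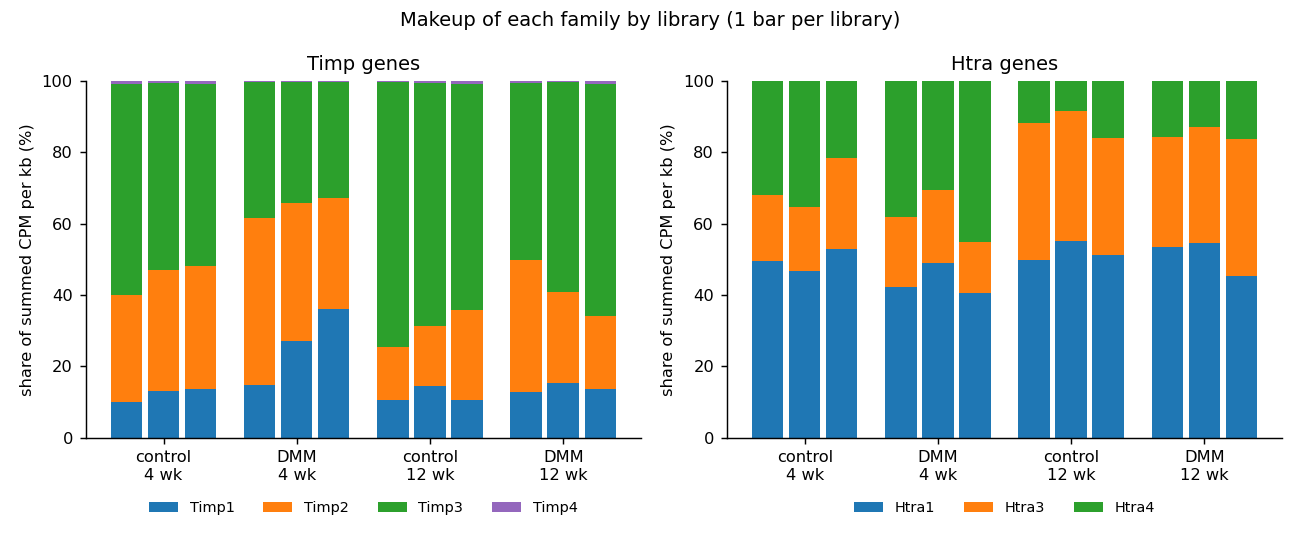
Share of each gene in the summed CPM per kb of its family (vertical axis, percent), with 1 bar per library in the order of replicates 1 to 3 within each group. Timp3 takes 50.9% to 59.0% of the Timp sum in 4-week controls and 32.4% to 38.1% in 4-week DMM cartilage, and Htra4 a smaller part of the Htra sum at 12 than at 4 weeks.

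For 7 of the members, the genes whose level followed theirs most closely over the 12 libraries were named by the mean absolute difference of standardised log2 CPM, among 13571 genes with a mean of at least 1 CPM. The closest to Timp1 were Tm4sf1 (0.126 SD units), 3300005D01Rik (0.128) and Gnpnat1 (0.169), and those closest to Htra3 were Chpf (0.126), Snai1 (0.181) and Slc6a12 (0.186). For Timp2 they were Galnt16 (0.166), Ccdc3 (0.172) and Gpr153 (0.20), and for Htra1 Tmbim1 (0.156), Trim47 (0.162) and Syt11 (0.17). Htra4 was closest to Fut10 (0.181), 2900041M22Rik (0.189) and Chst2 (0.205), and Reck to Mrgpre (0.197), Ctdsp2 (0.25) and Tnks1bp1 (0.265). For Timp3 they were Rab11fip5 (0.234), Rtkn (0.246) and Vmac (0.246).

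The protease families with targets of TIMPs or RECK were read from a list of 28 MMP, ADAM and ADAMTS genes, 25 of which had enough counts. Being on this list does not make a gene, such as Adam8 or Adam9, a target of these inhibitors. None was called by edgeR in a limb comparison, with 4 at an unadjusted p under 0.05 and 3 called by DESeq2 at 4 weeks, and 8 and 4 at 12 weeks. Here and in the lists that follow, the shares of all rows to read such counts against were 13.7% at 4 weeks and 16.3% at 12 weeks for the unadjusted p, and 3.54% and 4.14% for DESeq2. Mmp3 (stromelysin, which degrades proteoglycans and activates other MMPs) measured 28.2, 37.8 and 10.2 CPM in 4-week controls and 113, 198 and 668 CPM in 4-week DMM libraries, without overlap (log2 fold change 3.68 ± 0.74, edgeR adjusted p = 0.203, DESeq2 adjusted p = 1.654e-06). At 12 weeks its levels were 5.59, 13.6 and 10.1 CPM against 50.5, 54.5 and 22.9 CPM (2.13 ± 0.43, edgeR adjusted p = 0.184). Mmp2 (gelatinase A, whose activation uses TIMP2) measured 173, 180 and 103 CPM against 537, 341 and 327 CPM at 4 weeks (1.41 ± 0.31, edgeR adjusted p = 0.227) and 144, 111 and 110 CPM against 325, 310 and 170 CPM at 12 weeks (1.15 ± 0.26, edgeR adjusted p = 0.211). With the muscle score as a covariate the 4-week log2 fold change was 1.8 for Mmp3 and 2.105 for Mmp2 (edgeR adjusted p = 0.953 for both). In the 4-week DMM libraries the fibroblast and synovium markers (4398 to 6982 CPM in sum, against 2319 to 4309 CPM) and the osteoblast markers were higher as well, and their part in the differences of this list was not tested. Lower in DMM without overlap were Mmp17 (-0.94) and Mmp15 (-0.80), both membrane-type MMPs of low level, at 4 weeks, and the sheddases Adam10 (-0.69) and Adam8 (-0.62) at 12 weeks, none of which edgeR called. In all, 3 of the list were higher and 2 lower without overlap at 4 weeks, where 10.8% of all genes were higher and 10.3% lower in this way. At 12 weeks 8 were higher and 2 lower, where 9.92% of all genes were higher and 8.43% lower. The median of the list was 0.06 at 4 weeks and 0.12 at 12 weeks, beside -0.02 and 0.02 over all genes.
Within DMM cartilage, 10 of the 25 passed the test between the weeks, as did 23.6% of all rows. Mmp3 (-2.94), Mmp13, the main collagenase of cartilage (-1.27), Adamts5, the main mouse aggrecanase (-0.999), Adam9 (-0.89), Adam17 (-0.88) and Mmp19 (-0.80) fell, while Mmp25 (1.83), Adam8 (1.43), Mmp17 (1.34) and Adam15 (0.92) rose. None of the list was called between the weeks in control cartilage (4 at an unadjusted p under 0.05 and 3 by DESeq2, against 25.4% and 14% of all rows, with 5.7% called by edgeR).

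The matrix and growth factor partners of HTRA1 and HTRA3 formed a list of 22 genes, all tested. EdgeR called 0 between the limbs at either week, with 4 at an unadjusted p under 0.05 at 4 weeks and 12 at 12 weeks, and DESeq2 called 3 and 6. Fmod (fibromodulin, a collagen-binding proteoglycan) measured 160, 204 and 345 CPM in 12-week controls and 1126, 1207 and 607 CPM in DMM (log2 fold change 2.06 ± 0.36, edgeR adjusted p = 0.119), and 436, 369 and 140 CPM against 1039, 757 and 604 CPM at 4 weeks (1.35 ± 0.43, edgeR adjusted p = 0.298). Ddr2, a collagen receptor, was higher in all DMM libraries at 4 weeks (0.90 ± 0.24), as was Gdf5, a joint growth factor, at 12 weeks (1.13 ± 0.35), and neither was called by edgeR. In the list, 5 genes at 4 weeks and 8 at 12 weeks had groups that did not overlap, all higher in DMM, where 10.8% and 9.92% of all genes did so. The median log2 fold change was 0.34 and 0.62, beside -0.02 and 0.02 over all genes. The summed osteoblast markers were higher in all DMM libraries at 4 weeks (8139 to 10467 CPM, against 6175 to 6682 CPM in controls). So were the fibroblast and synovium markers (4398 to 6982 CPM, against 2319 to 4309 CPM), and the part of both in these values was not tested. Muscle markers were lower (661 to 4107 CPM, against 6755 to 25163 CPM), which cannot be told apart from the limb. Between the weeks Ddr2 fell past the test in control (-0.995) and DMM cartilage (-1.27), and in DMM cartilage Adam9 (-0.89) fell too while Acan, the aggrecan core protein (1.34), and Tgfb1 (1.38) rose. These were 1 of 22 in control and 4 of 22 in DMM cartilage, where 5.7% and 23.6% of all rows were called.

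Among 29 other genes of extracellular protease inhibitor families, not all of which need inhibit a protease, edgeR called 0 of 23 tested at 4 weeks and 0 of 21 at 12 weeks. At an unadjusted p under 0.05 there were 5 and 8, and DESeq2 called 2 and 3. Higher in all DMM libraries at 4 weeks were Serping1, the inhibitor of complement C1 (1.08), and Serpinf1 (1.002), and lower were Serpina1a (-0.99) and Spint2 (-0.56). The fibroblast and osteoblast marker sums were higher in these libraries too, and their part in this list was not tested. Muscle sums were lower, which cannot be told apart from the limb. At 12 weeks Serpina3n (1.10) and Cst6, a cystatin (0.99), were higher and A2m, the broad inhibitor alpha-2-macroglobulin (-1.32), and Slpi, a leukocyte elastase inhibitor (-0.37), lower. Between the weeks Pi16 rose past the test in control (1.54) and DMM cartilage (1.74), and Itih5 fell in both (-1.31 and -1.73). In DMM cartilage Serpinf1 (-0.995), Serping1 (-1.31) and Tfpi2 (-1.19) also fell and Spint2 (1.09) rose. Of 23 tested between the weeks, 2 were called in control and 6 in DMM cartilage, where 5.7% and 23.6% of all rows were called. Between the limbs, 3 of the list were higher and 3 lower without overlap at 4 weeks, where 10.8% and 10.3% of all genes were so. At 12 weeks 4 were higher and 2 lower, where 9.92% and 8.43% of all genes were so. The list medians of the limb differences were -0.00231 and 0.41, beside -0.02 and 0.02 over all genes.

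The receptors and binding partners of TIMPs and RECK, 15 genes with 13 tested, gave 0 calls between the limbs by edgeR and 0 by DESeq2 (3 and 4 at an unadjusted p under 0.05). Cd44 (0.64) and Itgb1 (0.58) were higher and Cd82 (-0.44) lower in all DMM libraries at 4 weeks. The sums of fibroblast and osteoblast markers were higher and of muscle markers lower in those libraries. For the first 2 kinds their part here was not tested, and the last cannot be told apart from the limb. At 12 weeks Lrp1, the endocytic receptor that clears TIMP3 (0.47), and Wnt7b, a ligand that RECK helps to recognise (1.35, at 0.640, 1.89 and 0.707 CPM in controls and 3.06, 2.87 and 2.37 CPM in DMM), were higher. Without overlap, 2 of the list were higher and 1 lower at 4 weeks, where 10.8% and 10.3% of all genes were so. At 12 weeks 2 were higher and 0 lower, where 9.92% and 8.43% of all genes were so. The list medians were 0.20 and 0.13, beside -0.02 and 0.02 over all genes. In DMM cartilage Itgb1 (-0.98) and Cd44 (-0.57) fell between the weeks, and Wnt7b (1.48), Itga3 (1.39), Adgra2 (0.97) and Cd82 (0.55) rose. These were 6 of 13, where 23.6% of all rows were called, and 0 were called in control cartilage (5.7% of all rows).

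Of 17 other serine proteases, with the mitochondrial Htra2 among them, 15 were tested and 0 called by edgeR between the limbs (4 and 5 at an unadjusted p under 0.05; 2 and 2 by DESeq2). Fap, fibroblast activation protein, measured 97.7, 110 and 118 CPM in 4-week controls and 217, 281 and 349 CPM in DMM (1.37 ± 0.23, edgeR adjusted p = 0.18). Prss23 was higher too (1.004 ± 0.270) and Htra2 lower in DMM (-0.51 ± 0.18), at 43.8, 42.4 and 47.4 CPM against 35.4, 31.3 and 27.0 CPM. In sum, fibroblast and synovium markers were higher in the 4-week DMM libraries, at 4398 to 6982 CPM against 2319 to 4309 CPM, with 5 of 8 markers higher and 1 lower without overlap, and their part in these differences was not tested. At 12 weeks the proprotein convertases Pcsk6 (1.08) and Furin (0.80) were higher and Dpp4 (-0.41) lower in every DMM library. Without overlap, 2 of the list were higher and 1 lower at 4 weeks, where 10.8% and 10.3% of all genes were so. At 12 weeks 3 were higher and 1 lower, where 9.92% and 8.43% of all genes were so. Medians were 0.03 and 0.10, beside -0.02 and 0.02 over all genes. Between the weeks Htra2 rose in control (0.57) and DMM cartilage (0.90), Prss23 fell in both (-1.18 and -1.35), Pcsk6 fell in controls (-1.99), and in DMM cartilage Fap (-1.53) and Dpp4 (-0.93) fell while Pcsk5 (1.27) and St14 (1.25) rose. Of 16 tested between the weeks, 3 were called in control and 6 in DMM cartilage, against 5.7% and 23.6% of all rows.

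Reads of members could be mixed with those of the genes that enclose them, since the methods describe a kit that keeps no strand. Syn1, Syn2 and Syn3 enclose Timp1, Timp4 and Timp3 on the opposite strand, and Cep295nl lies inside Timp2 on the same strand, with 0 shared exonic bases in each case. None of these 4 was called in either limb comparison by edgeR or DESeq2 (0 at 4 weeks and 1, Syn3, at 12 weeks with an unadjusted p under 0.05). Syn3 was lower in every DMM library at 12 weeks, at 3.06, 3.54 and 2.53 CPM against 1.98, 2.18 and 1.84 CPM (-0.60), and Cep295nl higher (0.88) at about 1 CPM or less.

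DNA methylation was read by reduced representation oxidative bisulfite sequencing, in which oxidised libraries (oxBS) report 5mC and unoxidised libraries (BS) report 5mC and 5-hydroxymethylcytosine (5hmC) together. Deposited cytosines had at least 10 reads, with a median of 22 to 102 reads per oxBS library. Coverage of members was uneven. No cytosine was covered within Timp1 or 5000 bp around it in any library of either week, and 4 in Timp4 were covered in all 6 libraries of each week. At 4 weeks 156 were tested for Timp2, 133 for Htra1, 121 for Reck, 73 for Htra4, 61 for Htra3 and 45 for Timp3, and at 12 weeks 130, 111, 121, 54, 68 and 43.

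Promoters, taken from 1000 bp before to 500 bp after the start, were nearly free of 5mC in every member with at least 3 cytosines. The mean 5mC of the Timp2 promoter (61 cytosines) was 0.404% to 1.496% over all 12 libraries, that of Reck (88 cytosines) 0.34% to 0.87%, and that of Htra4 (27 cytosines) 0.10% to 0.98%. Timp3 (27 cytosines) had 0.74% to 2.55%, Htra1 (51 cytosines) 3.47% to 4.78% and Htra3 (27 cytosines) 2.57% to 6.96%. The limb difference reached at most 1.49 percentage points, for Htra3 at 12 weeks, with 5.53%, 4.68% and 5.65% in controls and 3.98%, 4.66% and 2.77% in DMM, so that control replicate 2 and DMM replicate 2 nearly touched. At a coverage of at least 20 reads the difference, DMM minus control, was -0.45 points. Promoter groups did not overlap for Timp3 at 4 weeks (difference -0.82 points) or for Htra3 and Htra4 (-0.50 points) at 12 weeks, lower in DMM each time. Among all promoters 6.48% at 4 weeks and 10.9% at 12 weeks did so in that direction. The exact permutation p of these was 0.1 and 0.5 after adjustment.

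Most gene bodies had an intermediate mean 5mC, which can join cytosines of low and high 5mC. In 12-week controls the median was 16.3% at intronic and 81.8% at exonic cytosines of the Reck body. In the Htra4 body it was 38.4% at intronic and 0.75% at exonic cytosines. The body of Timp2 (58 cytosines in all 12 libraries) had a mean 5mC of 49.6%, 46.8% and 51.8% in 12-week controls and 37.3%, 41.2% and 40.0% in DMM, a difference of -9.88 points. The body of Htra3 (30 cytosines) had 46.4%, 51.0% and 50.6% in controls and 41.6%, 41.7% and 38.1% in DMM, a difference of -8.87 points. In Htra1 (45 cytosines) the controls had 35.6%, 36.0% and 35.6% and the DMM libraries 32.3%, 32.8% and 30.8% (-3.73 points). These 3 bodies did not overlap between limbs, lower in DMM, as did 24.1% of all gene bodies at 12 weeks. Each had an exact permutation p of 0.1, adjusted 0.5. The median body differed by -0.89 points over all genes, and 1.82% of the 13982 bodies differed by as much as Timp2 or more in this direction, 2.62% as much as Htra3 and 16.7% as much as Htra1.

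The Reck body (32 cytosines) had 44.9%, 42.7% and 41.7% in 12-week controls and 44.5%, 44.8% and 42.4% in DMM, and that of Htra4 (23 cytosines) 31.2%, 28.8% and 33.5% against 29.3%, 30.4% and 29.3%, both overlapping. At a coverage of at least 20 reads the limb difference of the Reck body moved from 0.17 to 3.10 points at 4 weeks and from 0.86 to 3.17 points at 12 weeks. At 4 weeks all member bodies overlapped between the limbs, where 8.76% of all bodies did not. Timp2 had 51.1%, 35.7% and 43.6% in controls and 41.7%, 34.6% and 36.1% in DMM (-6.00 points), Htra1 -4.54 points and Htra3 -4.38 points, with a median of -0.75 points over all bodies. The difference between weeks was tested for 30 pairs of region and mark, and in none of the 5mC regions was its exact permutation p under 0.12.

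**Figure D4:**
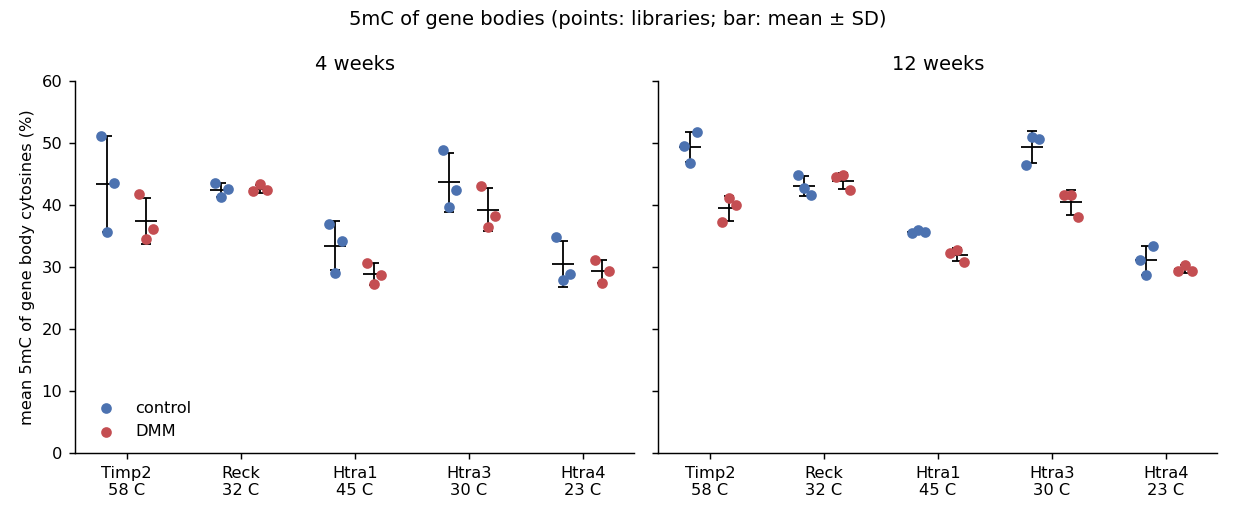
Mean 5mC (percent, vertical axis from 0 to 60) of the gene body cytosines covered in all 12 oxBS libraries, by gene, limb and week; points are libraries, bars the mean ± SD of 3, and the number of cytosines stands under each gene. At 12 weeks the DMM libraries of Timp2 (37.3% to 41.2%) and Htra3 (38.1% to 41.7%) lie below their controls, and those of Reck do not.

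Single cytosines were tested on pooled reads, with a call at a difference of at least 25 points and q under 0.05. At 4 weeks 0 of 593 member cytosines were called, with 58 at an unadjusted p under 0.05, against 8.02% of all cytosines, where 0.000554% of all cytosines were called. Without control replicate 2, the library of highest median coverage (102 reads), 3 of the 593 were called, all lower in DMM, and 0.21% of all cytosines. At 12 weeks 7 of 531 were called, all lower in DMM, where 0.227% of all cytosines were called. With an overdispersion correction 0 of the 7 remained called (30 of the 531 had an unadjusted p under 0.05, against 1.97% of all cytosines), and 0 of the 1273121 cytosines tested at that week were.
The adjacent Timp2 sites at chr11:118343006 and chr11:118343014, in the second Timp2 window shown above, were the farthest apart. The first had 56.2%, 63.6% and 68.8% 5mC in controls (32, 11 and 16 reads) and 20%, 23.1% and 12.5% in DMM (25, 13 and 24 reads), a pooled difference of -43.3 points (q = 8.4e-04). The second had 53.1%, 45.5% and 56.2% against 11.5%, 15.4% and 12.5% (-39.8 points, q = 0.00135). No library of 1 limb reached into the range of the other at either site, and with 8 bp between them and nearly equal reads they are not independent.
At chr11:118352741, nearer the start of Timp2, controls had 54.0%, 63.2% and 45.2% and DMM 23.1%, 18.6% and 33.3% (-28.3 points, q = 0.00343). At chr11:118330681 the levels were 68.6%, 69.7% and 60% against 33.0%, 50% and 38.2% (-28.1 points, q = 0.00139). Neither overlapped. In all, 18 of 59 tested intronic body cytosines of Timp2 were lower in DMM without overlap at 12 weeks. Among all cytosines 5.57% were so, promoter ones with little 5mC included, while the median 5mC of these 59 was 52.5% in controls. Nearby cytosines can share reads, so the 59 are not independent.

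The Htra3 site chr5:35677618 had 66.0%, 60.9% and 56.7% in controls and 40.3%, 41.9% and 22.9% in DMM (-25.9 points, q = 0.0157), without overlap. The Htra1 site chr7:130968901 had 49.1%, 30.8% and 36.1% against 12.5%, 15.8% and 20.8% (-25.9 points, q = 0.00359), also without overlap. At the Reck site chr4:43918398 the call rested on 1 control. Control replicate 1 had 80% (20 reads), controls 2 and 3 had 23.1% and 30% (13 and 10 reads), and DMM had 14.0%, 35.7% and 14.3%, so that the groups overlapped (-32.9 points, q = 0.0306).
The same 7 positions differed at 4 weeks by -14.0, -12.7, 10.1 and -9.94 points in Timp2, in the order given above, by -8.15 in Htra3, -0.46 in Htra1 and -13.1 in Reck, with every q at 0.578 or higher. The largest 4-week differences among members were at chr7:130945318 in intron 1 of Htra1 (-17.8 points, q = 0.335), chr8:25028705 in intron 8 of Htra4 (-16.8 points, q = 0.522) and chr7:130972811 in intron 3 of Htra1 (-14.8 points, q = 0.511).

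**Figure D5:**
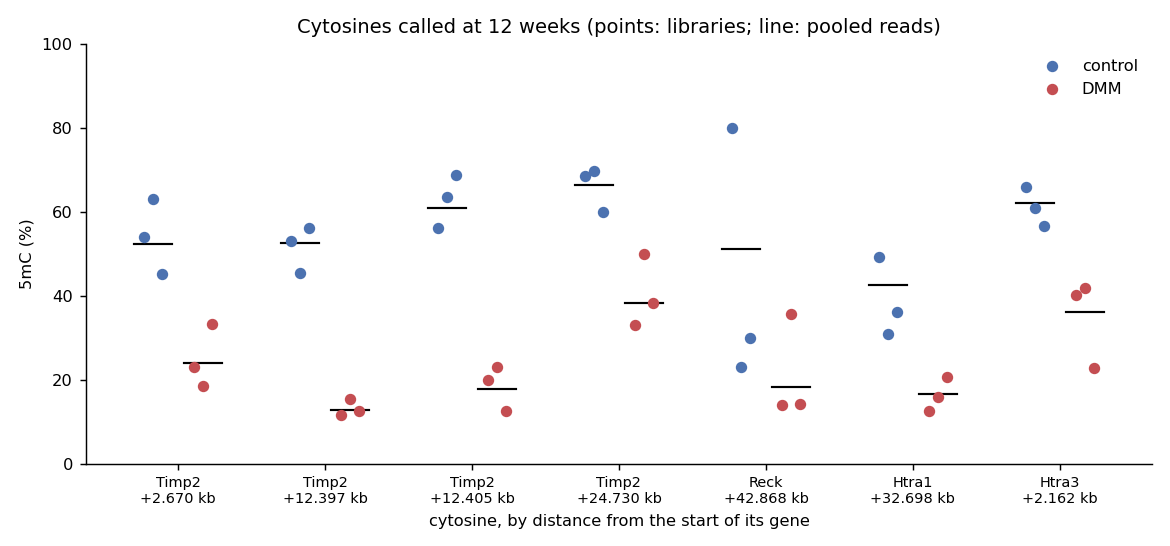
5mC (percent, vertical axis from 0 to 100) at the 7 cytosines called at 12 weeks, placed by gene and distance from its start; points are oxBS libraries and lines the level of the pooled reads of each limb. The limbs overlap at the Reck site, where control replicate 1 stands at 80%, and at none of the other 6.

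Groups did not overlap at 29 member cytosines at 4 weeks, 24 of them lower in DMM, where 6.14% of all cytosines did not overlap and 3.74% were lower in this way. At 12 weeks there were 53, 47 of them lower, where the shares of all cytosines were 8.11% and 5.57%. By gene, the 12-week count lower in DMM was 21 of 130 for Timp2, 11 of 68 for Htra3, 8 of 111 for Htra1, 4 of 54 for Htra4, 1 of 121 for Reck, 1 of 43 for Timp3 and 1 of 4 for Timp4. The flanks of the genes gave few cytosines. The 7 of the Timp3 upstream flank had a mean of 33.3%, 42.5% and 34.7% in 12-week controls and 27.6%, 38.1% and 28.5% in DMM, and the 6 of the Timp2 upstream flank 77.7%, 84.7% and 79.1% against 74.5%, 78.6% and 73.9%, both overlapping.

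5hmC was taken as BS minus oxBS, so that values below 0 occur. In the Timp2 body (55 cytosines) it was 6.29%, 8.03% and 4.61% in 12-week controls and 13.5%, 6.37% and 9.47% in DMM, and in the Htra3 body (21 cytosines) 6.56%, 8.27% and 4.397% against 9.86%, 8.70% and 8.06%, both overlapping. The name of the deposited BS file of 12-week DMM replicate 1 carries the number of another replicate, so that its 5hmC values are in doubt. Without this replicate the 12-week difference was 1.61 in place of 3.47 points for Timp2 and 1.97 in place of 2.47 points for Htra3, and at a coverage of at least 20 reads that of Htra3 was 6.12 points. The Htra4 body at 4 weeks (22 cytosines) did not overlap, with 5.04%, 5.36% and 8.22% in controls and 3.50%, 4.92% and 3.19% in DMM (-2.34 points, exact permutation p = 0.1, adjusted 0.79). Of all bodies 2.55% were lower in this way at that week. At 12 weeks 0 member regions lay apart in 5hmC, against 11.9% of all regions, and 1 did so without DMM replicate 1. Leaving out a library can only keep or raise such a count.

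Set side by side, the RNA and 5mC values of 12 weeks came from different mice and cannot be paired by library. Timp2 and Htra3 had higher RNA in all DMM libraries and lower body 5mC in all DMM libraries. Htra4 had the smallest RNA p of the members and a body 5mC that overlapped between limbs. Htra1 had lower body 5mC without overlap and RNA groups that touched through 1 control, and Reck overlapped in RNA and in body 5mC. Timp3 overlapped in RNA, and its body had only 3 covered cytosines, at 0% to 3.85% 5mC over all libraries, too low to show a loss.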

How the data were processed

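RNA-seq and reduced representation oxidative bisulfite sequencing were analysed in 36 samples (12 RNA, 12 oxBS, 12 BS), grouped by the labels. For RNA, the authors deposited raw counts per RefSeq transcript (FLEXBAR, STAR, featureCounts, mm10). The labels describe poly(A) libraries and the methods SMART-Seq v4 with Nextera XT. For DNA, the authors deposited a read coverage signal and the percent of C and T per CpG cytosine and strand, after MspI digestion and, per the labels, Bismark and CASAVA 2.17. Methylated reads were coverage times the percent of C.

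Counts were tested with edgeR 4.0.16 in R 4.3.3 (robust quasi-likelihood, TMM, edgeR's filter, adjustment over all rows) within each week for limbs and over 12 libraries for weeks and their interaction. DESeq2 1.42.0 was an alternative. SEs are the log2 fold change over the root of F. Cytosines with at least 10 reads in all 6 libraries were tested by a logistic likelihood ratio test on pooled reads (Python 3.11.15, scipy 1.17.1), and region means over cytosines covered in all 12 libraries by two-sided exact permutation tests, adjusted over the 15 member regions of each mark in both weeks. 5hmC was BS minus oxBS.

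The members and lists were chosen with earlier results of these data known. Named list genes are those called and, per week, up to 2 highest and 2 lowest of those whose limbs did not overlap. Named cytosines are those called and the 3 with the largest difference per week. Other settings were a different normalization, filters, 1 row per gene, a muscle score covariate, coverage of 20, strands merged, an overdispersion correction, the replicate number as a block, and each library left out. In simulated counts, 167 of 199 changed rows (log2 change of 2) at 4 weeks and 168 of 199 at 12 weeks were recovered, with 7 and 17 false calls. Every limb difference of a member was smaller than 2, and recovery at their size was not simulated. Replicates within a limb differed beyond counting noise (chi-square per degree of freedom 48.66 to 440). Count totals set the counting error only, and read intervals would not cover the spread between pools. The genes closest in pattern to Timp4 are not reported here.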

Additional observations from a re-analysis of the deposited data

Results flagged for a closer look

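In the 5hmC of the Htra4 body, the limb difference had an unadjusted p under 0.05 between the weeks, which did not hold after adjustment. The DMM minus control difference was -2.34 points at 4 weeks and 2.55 points at 12 weeks, and the change of 4.889 points had an exact permutation p of 0.045, which was 0.9 after adjustment over 30 pairs of region and mark. One control library at 12 weeks had a negative value (-2.68%), since 5hmC is a difference of 2 libraries, and the limbs overlapped at that week. The 12-week difference was 0.446 points without that library (control replicate 3), 1.99 points without DMM replicate 1, whose BS file name carries another replicate's number, and 0.147 points at a coverage of at least 20 reads.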

How the results depend on the processing

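Precision is limited by 3 pools per limb, by read depth at single cytosines and by the 3 against 3 exact test, which cannot pass the threshold. With DESeq2, 2 members were called between limbs at 4 weeks and 2 at 12 weeks, against 0 with edgeR, and in the lists 3 proteases, 3 matrix partners, 2 inhibitors and 2 serine proteases at 4 weeks and 4, 6, 3 and 2 at 12 weeks. Without a filter on low counts 1 member (Htra4) was called at 12 weeks, and with all 12 libraries in 1 fit 1 serine protease at 4 weeks. Those 2 fits called 56 of 25322 and 35 of 21618 rows in all. Between weeks, the fit of 6 libraries of a limb called 0 members in controls and 4 in DMM cartilage (0 of 21222 and 4980 of 20951 rows in all), and DESeq2 3 in the latter. With the muscle score as covariate the 4-week log2 fold change turned positive for Timp3 (0.25), Reck (0.40), Htra1 (0.99) and Htra3 (1.17), with edgeR adjusted p-values of 0.953 or higher. That fit called 0 of 21140 rows. In it, Timp1 moved to 0.54, Timp2 to 1.13, Timp4 to -0.60 and Htra4 to 1.18. The cause of these changes was not tested.

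Limbs came from the same mice, but whether equal replicate numbers mark pools of the same mice is not given in the sources used here, and the data did not show such pairing throughout. The correlation of deviations of same-numbered libraries was 0.36, -0.33 and 0.08 at 4 weeks and -0.55, 0.26 and -0.25 at 12 weeks. With the replicate number as a block, 1 member, 1 protease and 1 serine protease were called at 4 weeks, and 4 members, 4 proteases, 9 matrix partners, 2 inhibitors and 2 serine proteases at 12 weeks. The members were Timp4 at 4 weeks (edgeR adjusted p = 0.0334) and Timp1 (0.0352), Htra1 (0.0352), Htra3 (0.0394) and Htra4 (0.023) at 12 weeks. Over all rows, this fit called 354 of 21140 at 4 weeks and 734 of 21010 at 12 weeks, against 16 and 1 without the block. In the replicate block, 5 and 8 member regions had 5mC differences of 1 sign in all 3 numbers at 4 and 12 weeks, and 3 and 4 regions in 5hmC, where the smallest sign-flip p is 0.25. The share of all regions with differences of 1 sign was not computed, so these counts are a description only.

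For 5mC at 12 weeks, 2 member cytosines were called at a coverage of at least 20 reads (0.161% of all cytosines), 0 with the overdispersion correction (0%) and 17 at a difference of 20 points (0.674%). Without control replicate 2 and DMM replicate 1, whose names share a style, 4 were called, 3 lower and 1 higher in DMM (0.102% of all cytosines). Non-overlapping 5mC regions at 4 weeks numbered 2 when weighted by reads and 2 at 20 reads, against 1. In 5hmC the counts were 2 and 2 at 4 weeks, and 2 at 12 weeks with 20 reads.

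When single libraries were dropped, the members called between limbs were 0 to 1 at 4 weeks (1 without control replicate 3) and 0 to 4 at 12 weeks (4 without control replicate 2, 1 without DMM replicate 3). Between weeks they were 0 to 3 in controls and 0 to 2 in DMM cartilage. In the lists at 12 weeks they were 0 to 3 proteases, 0 to 2 receptors, 0 to 2 matrix partners, 0 to 1 inhibitors and 0 to 3 serine proteases, and 0 to 1 serine proteases at 4 weeks. Over all rows, these fits called 0 to 118 at 4 weeks (118 without control replicate 3) and 0 to 860 at 12 weeks. The 860 came without control replicate 2, and 102 were called without DMM replicate 3. Between weeks they called 37 to 4683 rows in controls and 1682 to 6396 in DMM cartilage. Called cytosines were 0 to 3 at 4 weeks and 4 to 10 at 12 weeks. The 3 came without control replicate 2, the 4-week oxBS library of highest median coverage, where 0.21% of all cytosines were called. At 12 weeks 0.129% to 0.409% of all were called, and 1 of the 4 member calls without DMM replicate 1 was higher in DMM. Non-overlapping 5mC regions numbered 2 to 5 and 5 to 9, and 5hmC regions 1 to 3 and 0 to 4. Groups that lie apart stay apart when a library is left out, so these region counts could only stay or rise. The log2 fold change spanned 0 at 4 weeks for Htra1 (-0.57 to 0.12), Htra3 (-0.51 to 0.15) and Htra4 (-0.24 to 0.53), at 12 weeks for Timp4 (-0.039 to 0.53), and between weeks in controls for Htra3 (-0.46 to 0.22).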
